A study of Mus musculus with 4 samples.

Results

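The ankyrins and spectrins are the proteins of the membrane skeleton, and 5 of their genes were followed here through the loss of the RNA-binding protein Quaking (Qk) in the embryonic mouse cortex. The members were taken by gene symbol (Ank1, Ank2, Ank3), or by gene identifier because the files use older symbols, for alpha II spectrin (Sptan1, listed as Spna2) and beta II spectrin (Sptbn1, listed as Spnb2). They are 5 of the 23038 genes in the files, and 34 of the 38240 splicing events belong to them. Poly-A RNA was sequenced from cortices at E14.5, a midgestation stage of neurogenesis counted in embryonic days, with 2 control and 2 Qk conditional knockout (Qk cKO) samples. Control samples are named wild type in the labels and were Qk fl/fl littermates by the study's results text. Qk cKO samples carried the same floxed alleles and Nestin-Cre, so the allele was removed in neural progenitors and the cells they give rise to, while vessels, blood and meninges in the tissue kept it. The labels call the samples independent. The edgeR p-values rest on the spread between 2 samples a group, moderated by the spread over all genes or events tested. Fisher's exact tests on summed tags leave the spread between samples out.

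Spectrin is built of alpha and beta chains that pair and join end to end, and short actin filaments link the resulting rods into a net under the plasma membrane. Ankyrins bind beta spectrin on one side and membrane proteins on the other, such as sodium channels and cell adhesion molecules of the L1 family, and so hold them in place. Ank3 encodes ankyrin-G, the organizer of the axon initial segment, Ank2 encodes ankyrin-B, found along axons, and Ank1 encodes ankyrin-R, first known from red blood cells. Sptan1 is the alpha chain of cells outside the blood lineage, and Sptbn1 the beta chain of the periodic axonal skeleton. Ankyrins are known to be made in short and giant forms in neurons by the use of very large exons.

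The libraries held between 37941978 and 42994780 tags assigned to genes, a tag being the unit counted in the deposited values. The study lists fewer mapped read pairs for each sample, so a tag is not the same as a sequenced fragment. The deletion was checked at Qk itself. The junction from exon 2 (chr17:10282839-10282981 on the minus strand, mm10), which the floxed allele loses, to exon 3 had 635 and 565 tags in control samples and 63 and 68 tags in Qk cKO samples. Set against the tags of the next junction, exon 3 to exon 4, counted separately, these were 111% and 129% of that number in control and 7.02% and 8.19% in Qk cKO. The Qk RNA level over the whole gene was 21.1 and 21.7 RPKM (reads scaled to exon length and library size) in control and 32.5 and 34.2 RPKM in Qk cKO, a log2 fold change of 0.65 (SE 0.065, adjusted p = 2.50e-05, edgeR quasi-likelihood test). Cortical progenitor markers summed to 1687 and 1561 RPKM in control against 1375 and 1319 RPKM in Qk cKO, with 2 of 10 called lower (Fabp7 and Slc1a3). None of 8 markers of postmitotic cortical neurons was called. The 11 erythroid markers summed to 758 and 768 RPKM in control and 1088 and 783 RPKM in Qk cKO, and none was called. Subpallial neuron and choroid plexus markers were present in all 4 samples (sums of 126 to 135 RPKM and 565 to 786 RPKM), and markers of skeletal muscle summed to at most 1.44 RPKM. In bulk tissue, fewer cells of a type and less RNA per cell cannot be told apart.

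The exons on which the splicing results turn are shown here 5′ to 3′ on the strand of the gene, from GENCODE M21 transcripts (GRCm38, the assembly of mm10). The first of the Ank2 exons was the only member event called, and the other 5 are the rest of the tested coding cassette exons, without a rarely used exon of Sptan1. Each has a length divisible by 3 and held no stop codon in the annotated frame.
Ank2, 183 nt: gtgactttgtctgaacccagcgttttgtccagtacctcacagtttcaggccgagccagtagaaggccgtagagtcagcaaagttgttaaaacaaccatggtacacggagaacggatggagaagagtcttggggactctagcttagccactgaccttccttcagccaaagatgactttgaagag
Ank2, 99 nt: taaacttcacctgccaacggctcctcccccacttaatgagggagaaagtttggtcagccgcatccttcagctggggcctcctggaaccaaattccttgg
Ank3, 33 nt: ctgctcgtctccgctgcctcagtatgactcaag
Ank3, 27 nt: gagacagagtcagatcaagatgatgag
Sptan1, 60 nt: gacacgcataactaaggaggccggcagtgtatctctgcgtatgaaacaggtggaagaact
Sptan1, 15 nt: ctttccaagctgttg

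The first question was how much RNA each gene had at E14.5 and how the levels compare. Levels between genes are given in RPKM, that is per length of exon. Sptan1 was by far the highest member and Ank1 the lowest. Sptan1 ran from 280 to 293 RPKM over the 4 samples (mean 286.7 RPKM), above 98.9% of the genes with at least 1 RPKM. Sptbn1 followed at 57.7 to 62.9 RPKM, Ank2 at 40.0 to 43.4 RPKM, Ank3 at 21.4 to 22.6 RPKM and Ank1 at 3.43 to 4.01 RPKM. The ranges of neighbours in this order did not overlap, and the closest pair, Sptbn1 and Ank2, lay 1.46-fold apart by their means. The length behind these values was 11510 nt of exon for Ank2 and 23256 nt for Ank3, and a length that includes exons the embryo does not use lowers the RPKM. In tags, which are not scaled by length, Ank3 was above Ank2 in each sample (19902 to 21442 against 18936 to 20672 tags). The order of these genes therefore rests on the exon length used.

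**Figure D1:**
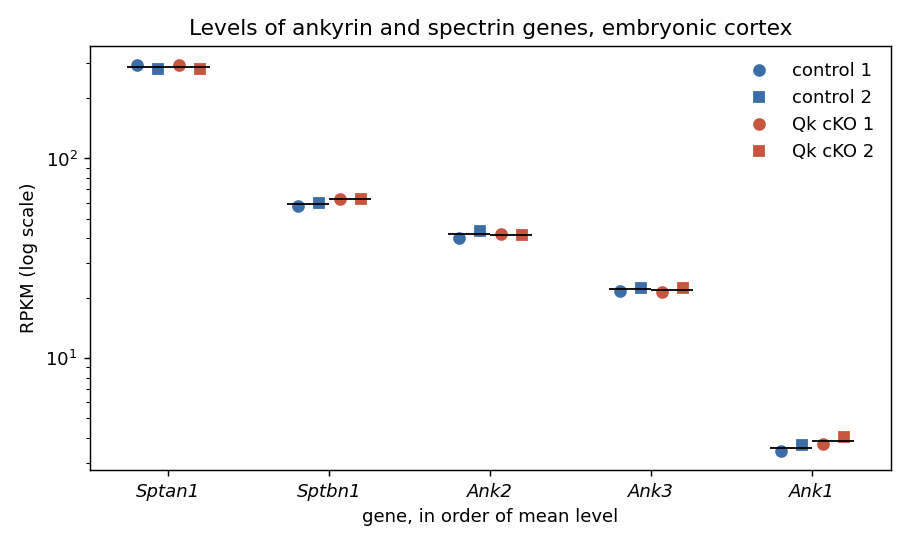
Level of each gene in RPKM (log axis) in the 4 samples, with control in blue and Qk cKO in red, circles for replicate 1, squares for replicate 2 and a line at each group mean (n = 2). The genes keep the order Sptan1, Sptbn1, Ank2, Ank3, Ank1 in each sample, and the 4 points of a gene lie close together beside the distance between genes.

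Within the ankyrins, Ank2 took 61.0% to 62.4% of the summed RPKM in the 4 samples, Ank3 32.0% to 33.3% and Ank1 5.27% to 5.93%. The ratio of Sptan1 to Sptbn1 was 5.08 and 4.66 in control and 4.65 and 4.48 in Qk cKO. Control replicate 2 and Qk cKO replicate 1 were nearly level in this ratio, and an exact permutation test of 2 samples against 2 cannot give a two-sided p below 0.333.

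The second question was whether loss of Qk moved these levels. No member gene was called at p below 0.01 and a false discovery rate below 0.1, where 0.584% of the 18834 genes tested were called. By edgeR's quasi-likelihood test none of the 5 had an unadjusted p below 0.05, and the edgeR exact test and DESeq2 called none. Ank2, the ankyrin with the highest RPKM, had 40.0 and 43.4 RPKM in control and 41.8 and 41.2 RPKM in Qk cKO. The Qk cKO values lay inside the control range, and the log2 fold change was 0.0078 (SE 0.076, adjusted p = 0.991). Ank3 had 21.7 and 22.6 RPKM in control and 21.4 and 22.4 RPKM in Qk cKO. Its groups overlapped and its log2 fold change was -0.00036 (SE 0.075, adjusted p = 0.999).

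Ank1 had 3.43 and 3.68 RPKM in control and 3.71 and 4.01 RPKM in Qk cKO. Both Qk cKO samples were above both controls, but the gap between the groups was smaller than that between the replicates of either. Its log2 fold change of 0.13 (SE 0.106, adjusted p = 0.807) had a 95% interval of -0.089 to 0.35. Erythroid markers, among which Ank1 is not counted, were also highest in Qk cKO replicate 1, while Ank1 was highest in replicate 2. Their part in the Ank1 values was not tested.

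Among the spectrins, Sptan1 had 293 and 280 RPKM in control and 293 and 281 RPKM in Qk cKO. The groups overlapped almost fully, with a log2 fold change of 0.016 (SE 0.081, adjusted p = 0.974). Sptbn1 had 57.7 and 60.1 RPKM in control and 62.9 and 62.8 RPKM in Qk cKO. The groups did not overlap, and the log2 fold change was 0.11 (SE 0.076, unadjusted p = 0.174, adjusted p = 0.774 by edgeR).

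Groups did not overlap in 2 of the 5 members (Ank1 and Sptbn1), while they did not overlap in 36.9% of all genes tested. The 95% intervals, which use edgeR's spread moderated over all genes, limit what could have been missed. They span 0.901 to 1.12 times the control level for Ank2, 0.897 to 1.11 for Ank3, 0.900 to 1.14 for Sptan1, 0.965 to 1.20 for Sptbn1 and 0.940 to 1.28 for Ank1. The median log2 fold change of the members was 0.016 and that of all genes tested was -0.0025, and the median absolute log2 fold change was 0.016 against 0.12 over all genes and 0.082 over genes of at least 1 RPKM.

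**Figure D2:**
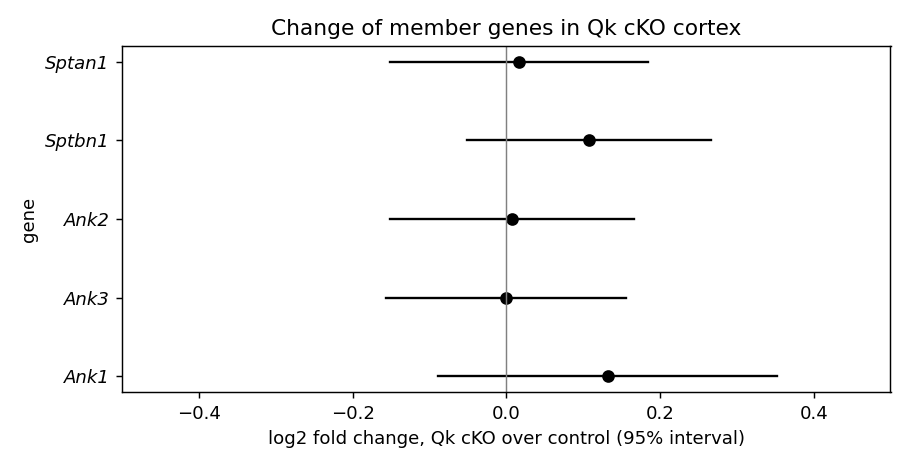
Log2 fold change of each member gene in Qk cKO over control (x axis), as the edgeR estimate with its 95% interval from 2 samples a group. The 5 intervals include 0, and the point estimates lie between -0.00036 for Ank3 and 0.13 for Ank1.

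The third question was whether the transcripts were spliced differently. Inclusion is the share of junction tags that use the alternative exon or splice site, with the pair of junctions of a cassette exon averaged, and ΔI is inclusion in control minus inclusion in Qk cKO. Of the 34 member events, 15 belonged to Ank1, 4 to Ank2, 10 to Ank3 and 5 to Sptan1, and none to Sptbn1. Only 9 had the coverage of at least 20 tags needed for the test (coverage being the smallest sum of junction tags over either isoform or either group), namely 8 cassette exons and an alternative 3′ splice site. One of the 9 was called by Fisher's exact test on tags summed over replicates, where 7.5% of the 11500 events tested were called. Called events with an absolute ΔI of at least 0.1 made up 3.3% of all events tested, and no member event was among them. The edgeR test of the isoform by genotype interaction, which takes the spread between samples into account, called 0.557% of events and no member event, with 0 of 9 below an unadjusted p of 0.05. Inclusion did not overlap between the groups in 6 of 9 member events and in 37.9% of all events tested. The median absolute ΔI was 0.018 for the 9 member events and 0.026 for all events tested, at a median coverage of 287 and 65.8 tags.

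**Figure D3:**
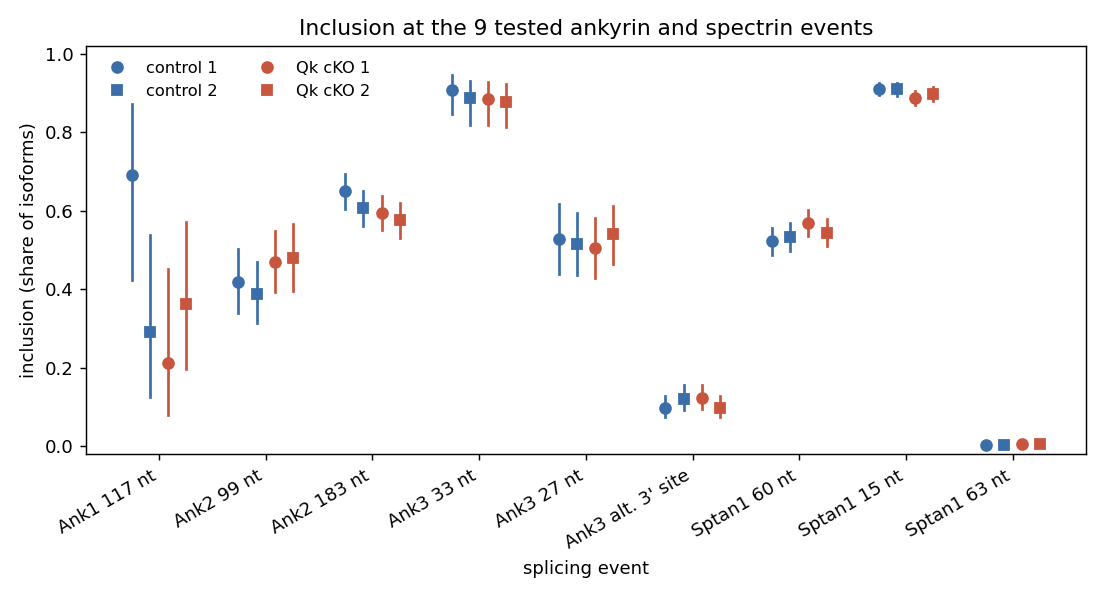
Inclusion (y axis, as a share from 0 to 1) at the 9 tested events in each sample, with control in blue, Qk cKO in red and bars for the 95% Wilson interval, which covers counting error only. The Ank2 exon of 183 nt steps down from 0.651 in control 1 to 0.576 in Qk cKO 2, and the Ank1 exon of 117 nt has the widest intervals and 1 high control sample.

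The called event was the 183-nt exon of Ank2 at chr3:126928665-126928847 on the minus strand, exon 45 of 46 in transcript Ank2-208, which adds 61 codons near the end of the protein. It was included at 0.651 and 0.607 in control and at 0.595 and 0.576 in Qk cKO. All Qk cKO values were below the controls, but the control samples differed by as much as the groups did. ΔI was 0.044 with a 95% interval of -0.00089 to 0.088 (Fisher's exact test p = 0.0020, adjusted p = 0.036, coverage 723 tags). The call came from summed tags that include reads within the exon. With junction tags alone Fisher's exact test gave p = 0.062 (adjusted p = 0.390), and the edgeR interaction test gave an adjusted p of 0.575. Over all alternatives run for this exon the adjusted p ran from 0.016 to 0.575. The call was also lost without control replicate 1 (ΔI 0.022) and without Qk cKO replicate 2 (ΔI 0.034).

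The separate junctions show where the samples differed. Tags entering the 183-nt exon were 6.18 and 6.28 per 1000000 assigned tags (RPM) in control and 6.34 and 5.93 in Qk cKO, so the groups overlapped. Tags leaving it were 7.77 and 7.70 RPM in control and 6.92 and 7.39 in Qk cKO, lower in both Qk cKO samples. Tags skipping it were 3.74 and 4.53 RPM in control and 4.52 and 4.91 in Qk cKO, and control replicate 2 was level with Qk cKO replicate 1.

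**Figure D4:**
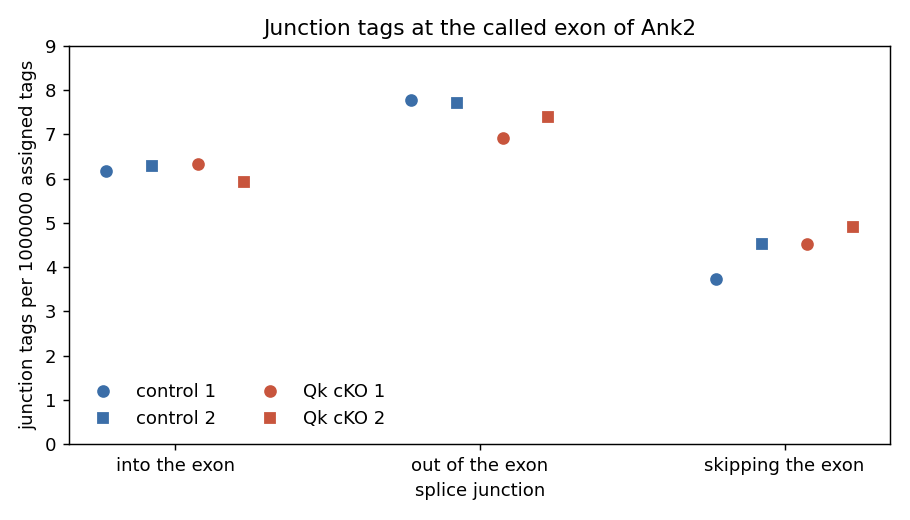
Junction tags per 1000000 assigned tags (y axis, from 0) into, out of and across the 183-nt exon of Ank2 in each sample. For the skipping junction control 1 is the lowest at 3.74 and the other 3 samples lie between 4.52 and 4.91.

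The other Ank2 exon, of 99 nt (chr3:126963383-126963481, minus strand, exon 28 of 46 in Ank2-207, 33 codons), leaned the other way. Its inclusion was 0.419 and 0.388 in control and 0.470 and 0.480 in Qk cKO. Both Qk cKO samples were higher, with a ΔI of -0.071 (95% interval -0.152 to 0.010), and the event was not called (Fisher's exact test p = 0.045, adjusted p = 0.262).

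The tested Ank3 events were near the same level in both groups. The 33-nt exon (chr10:69953440-69953472, plus strand, 11 codons) was included at 0.908 and 0.886 in control and at 0.885 and 0.878 in Qk cKO, a ΔI of 0.016 (95% interval -0.038 to 0.070, adjusted p = 0.932 by Fisher's exact test). The 27-nt exon (chr10:69980824-69980850, 9 codons) was used in about equal parts with its skipping form, at 0.529 and 0.516 in control and 0.506 and 0.540 in Qk cKO. Its groups overlapped and ΔI was -0.0018 (95% interval -0.082 to 0.078). The alternative 3′ splice site at chr10:70001923, 588 nt upstream of the site at chr10:70002511 in the same exon, took 0.098 and 0.121 of junction tags in control and 0.122 and 0.098 in Qk cKO. Its groups spanned the same range and ΔI was -0.0014 (95% interval -0.030 to 0.028).

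Sptan1, the alpha chain with which beta chains pair, had the member event with the highest coverage, 1477 tags. Its 60-nt exon (chr2:30001100-30001159, plus strand, exon 23 of an annotated transcript of 57 exons, 20 codons) was included at 0.523 and 0.534 in control and 0.569 and 0.545 in Qk cKO. Both Qk cKO samples were higher, with a ΔI of -0.029 (95% interval -0.064 to 0.0051) and an adjusted p of 0.428 by Fisher's exact test. The 15-nt exon (chr2:30014158-30014172, exon 37 of 57, 5 codons) was included at 0.911 in each control and at 0.888 and 0.899 in Qk cKO. It was lower in both Qk cKO samples by a ΔI of 0.018 (95% interval 0.00071 to 0.035, counting error only). The event was not called (Fisher's exact test p = 0.038, adjusted p = 0.236, edgeR interaction test p = 0.107). The 63-nt exon (chr2:30028644-30028706, 21 codons) was rare in all samples, at 0.0045 and 0.0035 in control and 0.0049 and 0.0066 in Qk cKO.

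The 117-nt exon of Ank1 (chr8:23131438-23131554, plus strand) is annotated in 1 transcript, in which it is not coding. It was included at 0.692 and 0.290 in control and 0.212 and 0.364 in Qk cKO. Control replicate 1 stood above the other 3 samples, and the groups overlapped. ΔI was 0.175 (95% interval -0.056 to 0.388, adjusted p = 0.464 by Fisher's exact test) on a coverage of 42 tags, the lowest of the 9. Without control replicate 1 ΔI was -0.0084, and without control replicate 2 it was 0.394 with an adjusted p of 0.0999, which passed the threshold. Over all alternatives run for it the adjusted p ran from 0.0999 to 1.

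The other 25 member events were below the coverage minimum, 16 of them with a coverage below 5, and none was called when the minimum was lowered to 10. Some of them had many tags but almost none of 1 isoform, such as a 51-nt exon of Sptan1, skipped by 325 to 371 tags a sample. Near the 3′ end of Ank1, chosen after its values were seen, the 125-nt exon at chr8:23141596-23141720 was an alternative exon of 2 events with different upstream splice sites. From one site it was skipped by 1 and 1 junction tags in control and 4 and 11 in Qk cKO, and from the other by 4 and 2 in control and 2 and 0 in Qk cKO, so the events leaned in opposite directions. The first, with a coverage of 17 tags, had an unadjusted p of 0.029 and an adjusted p of 0.224 by Fisher's exact test at the lower minimum. The giant exons of Ank2 (6198 nt, chr3:126941610-126947807) and Ank3 (7674 nt, chr10:69986089-69993762) are not the alternative exon of a cassette event in the files, so their inclusion was not measured here.

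The partners of the skeleton, from the chains that pair with the members to the membrane proteins that ankyrins bind, were compared in the same way. None was called by its RNA level, and 13 of their splicing events were called. Of 44 listed partner genes 43 were found by symbol or identifier (Sptbn5 was not matched), and these 43 were tested. By edgeR's quasi-likelihood test 0 were called in either direction, 3 had an unadjusted p below 0.05 (Epb41l1, Nrcam and Slc4a1), and the edgeR exact test and DESeq2 called none. By sign 22 were higher and 21 lower in Qk cKO, with a median log2 fold change of 0.00046 over the list. Cdh1 and Slc4a1 were called only in fits that left a single Qk cKO sample, which hold no spread within that group. Cdh1 had 1.05 and 0.767 RPKM in control and 0.498 and 1.69 RPKM in Qk cKO, so its groups overlapped. Its log2 fold change without Qk cKO replicate 1 was 0.89. Slc4a1 had 0.814 and 0.808 RPKM in control and 1.45 and 0.954 RPKM in Qk cKO. Its log2 fold change without Qk cKO replicate 2 was 0.86. Slc4a1 is also counted among the erythroid markers, whose summed RPKM was highest in Qk cKO replicate 1. Their part in its values was not tested.

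By role, the other spectrins were low. Sptbn4, the beta IV chain of the axon initial segment, had 2.85 and 3.25 RPKM in control and 2.55 and 3.24 RPKM in Qk cKO. Sptb, the beta chain of red cells, had 1.34 to 1.56 RPKM. Among proteins of the spectrin-actin junction the highest were Actb (1082 to 1123 RPKM) and Actg1 (386 to 417 RPKM), the cytoplasmic actins, and Add1 (105.1 to 114.1 RPKM), an adducin that caps actin filaments and recruits spectrin. Add1 had 108.3 and 114.1 RPKM in control and 106.2 and 105.1 RPKM in Qk cKO, a log2 fold change of -0.060 (SE 0.074, adjusted p = 0.893).

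The adhesion molecules that ankyrins hold were led by L1cam (87.9 to 94.6 RPKM), Chl1 (40.0 to 44.6 RPKM) and Nfasc (30.3 to 32.1 RPKM), none of which was called. Nrcam, another of this family, had 28.1 and 28.3 RPKM in control and 32.1 and 31.8 RPKM in Qk cKO. The groups did not overlap and the log2 fold change was 0.19 (SE 0.068), but it was not called (unadjusted p = 0.0103, adjusted p = 0.338 by edgeR). The channels and transporters compared here included Atp1b1 (18.2 to 21.5 RPKM) and the potassium channel gene Kcnq3 (11.9 to 13.4 RPKM), neither of which was called. Among transport and scaffold proteins the highest were Dctn1 (75.6 to 81.8 RPKM) and Dctn4 (23.1 to 23.9 RPKM), subunits of dynactin, and Ndel1 (20.1 to 21.6 RPKM), a regulator of dynein.

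**Figure D5:**
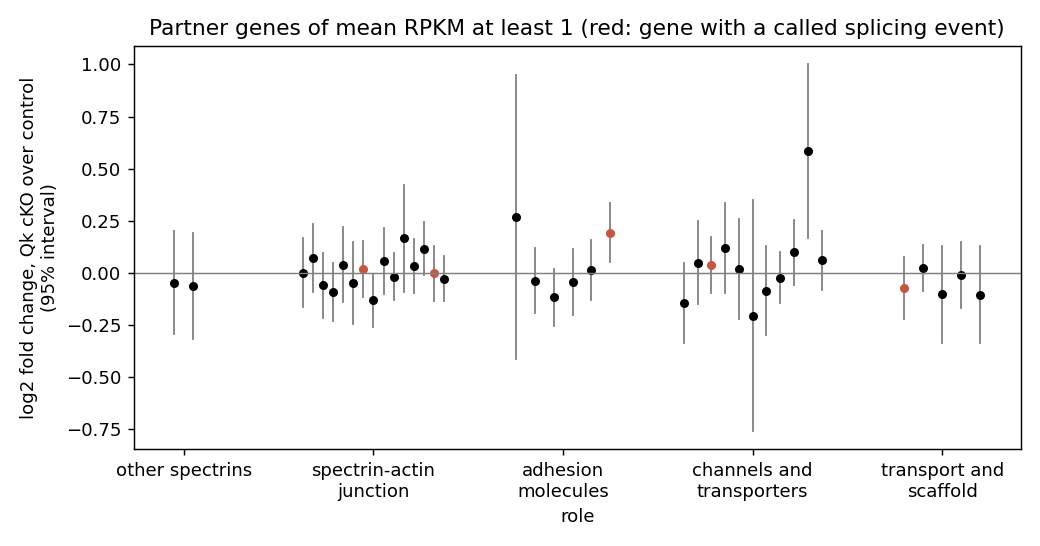
Log2 fold change in Qk cKO over control with its 95% interval for the 39 partner genes of mean RPKM at least 1, grouped by role and in alphabetical order within a role. The 5 genes with a called splicing event are red. Slc4a1 among the channels and transporters, also counted as an erythroid marker, is the highest point at 0.58.

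Splicing of the partners was tested at 90 events in 21 genes, and 13 events in 5 genes were called by Fisher's exact test, 14.4% against 7.5% of all events. Inclusion was higher in Qk cKO in 12 of them and higher in control in 1, and 11 had an absolute ΔI of at least 0.1. These counts hold events that share exons, 5 in Epb41 and 3 in Dctn1, so they are not independent. The study already names Nrcam and Dctn1 among its Qki splicing targets from these same samples, so their calls are not separate evidence. The edgeR interaction test called 2, both in Nrcam.

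The 57-nt exon of Nrcam (chr12:44545379-44545435, plus strand) was included at 0.989 and 0.949 in control and at 0.721 and 0.643 in Qk cKO. The groups were far apart, with a ΔI of 0.287 (adjusted p = 6.53e-21 by Fisher's exact test, 0.024 by edgeR). The 30-nt exon of Nrcam (chr12:44566840-44566869) moved the other way, from 0.766 and 0.777 in control to 0.960 and 0.946 in Qk cKO. Its ΔI was -0.181 (adjusted p = 1.86e-17 by Fisher's exact test, 0.015 by edgeR). The 18-nt exon of Nrcam (chr12:44535057-44535074) was at 0.363 and 0.393 in control and 0.478 and 0.483 in Qk cKO, and the edgeR interaction test did not call it (adjusted p = 0.566).

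Epb41, the protein 4.1R gene whose product ties spectrin to actin, had its largest cassette difference at the 63-nt exon at chr4:131962924-131962986 (minus strand). Inclusion was 0.219 and 0.254 in control and 0.375 and 0.368 in Qk cKO, a ΔI of -0.134 (adjusted p = 6.17e-06 by Fisher's exact test, 0.309 by edgeR). In Dctn1 the 18-nt exon at chr6:83186428-83186445 was included at 0.775 and 0.800 in control and 0.963 and 0.991 in Qk cKO, a ΔI of -0.195 (adjusted p = 0.0018 by Fisher's exact test, 0.147 by edgeR, coverage 22.1 tags). In Itpr1, a calcium release channel, the 45-nt exon at chr6:108365299-108365343 was included at 0.616 and 0.770 in control and 0.924 and 0.962 in Qk cKO, a ΔI of -0.243 (adjusted p = 0.014 by Fisher's exact test, 0.351 by edgeR, coverage 20.2 tags). The other called gene was Tpm1, a tropomyosin that lies along actin, where an alternative 5′ splice site had a ΔI of -0.016. In the exons of Epb41, Dctn1 and Itpr1 given here both Qk cKO samples were above both controls. These exons were named because Fisher's exact test on the same samples called them, so this separation is not separate evidence. Inclusion did not overlap between the groups in 37.9% of all events tested.

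The genes whose pattern over the 4 samples was nearest to that of a member, by Euclidean distance between log2 RPKM values centred on each gene's mean, were Lmo3 and Cul2 for Ank1, Ambra1 and Sike1 for Ank2, and Spg11 and Snx3 for Ank3. For the spectrins they were Mcm3ap and Lpcat1 for Sptan1, and Atf7ip and Msl1 for Sptbn1. With 4 samples such likeness is common, as between 897 and 2406 of 12732 genes lay within a distance of 0.1 of a member.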

How the data were processed

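Per the labels and the study's results text, poly-A RNA of 4 E14.5 cortices was sequenced, while its methods text gives 3 replicates. The authors aligned reads to mm10 with OLego and counted them with Quantas. The deposited values are estimated counts (tags) per gene and per splicing isoform, not all whole (8.41% to 12.1% of genes a sample), and RPKM per gene. The aligner version is not given in the sources used here. Gene tags were rounded and tested with edgeR 4.0.16 (quasi-likelihood, TMM, genes with at least 1 tag). Events were tested by Fisher's exact test on tags summed over replicates and rounded, with coverage (the smallest row or column sum of junction tags) of at least 20 and Benjamini-Hochberg adjustment within each event type. Calls needed p below 0.01 and an adjusted p below 0.1. Tags summed over replicates leave out the spread between embryos, so edgeR's interaction test is given beside. DESeq2 1.42.0, other scalings, filters, coverage minimums and left-out samples were alternatives. Scripts were tested on simulated data. Exons were placed by matching event offsets to GENCODE M21 exon edges. Named partners were those with a called event of ΔI of at least 0.1 or among the 3 highest by RPKM in a role, and other named partners were chosen after their values were seen. Members and gene lists were chosen with earlier results of these data known. Intron and protein sequences were not used here. Replicate numbers are shared by the labels, and the study calls the embryos littermates without giving pairs. Some listed genes are not reported here and stay out of the counts.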

Additional observations from a re-analysis of the deposited data

How the results depend on the processing

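No member gene was called under the alternatives that kept all 4 samples, including the replicate block (0 of 5). The stricter filter on low counts called only 11 of 15447 genes in all, so it could hardly call a member. Fits without 1 sample leave a group with no spread of its own and cannot decide this. The block called 1 member event and 15 partner events. Same-numbered samples deviated together with a correlation of 0.303 over 12928 genes and -0.081 over 12442 autosomal genes. Why the value fell without the other genes was not tested. With only 2 pairs, neither value can decide whether equal numbers mark paired embryos, so the block is given as an alternative only. The block called 192 genes against 110 over all genes. The call of the Ank2 exon of 183 nt was lost with junction tags alone and under the edgeR interaction test (ΔI 0.044 in both), which gave 0 member events and, under edgeR, 2 partner events. Leaving out 1 sample gave a ΔI of 0.022 to 0.066 for this exon, 0 to 2 member events, 7 to 11 partner events (7 without control replicate 1) and 0 to 1 partner genes. Over those left-out samples the log2 fold change ran from -0.048 to 0.063 for Ank2, -0.026 to 0.023 for Ank3 and -0.026 to 0.054 for Sptan1, and for Ank2 it was -0.00011 under upper-quartile scaling. ΔI ran from -0.0084 to 0.394 for the Ank1 exon, -0.019 to 0.016 for the Ank3 exon of 27 nt, whose direction also turned under the edgeR interaction test (ΔI -0.0018), and -0.013 to 0.011 for the Ank3 splice site. The causes were not tested. For Qk the adjusted p ran from 9.77e-21 to 0.341, the highest without control replicate 2, at a log2 fold change of 0.66. Of the 34 member events 25 were below the coverage minimum, through few tags or a rare isoform, and were not tested.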
